A study of Mus musculus with 30 samples.

Results

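The expression of 9 genes used as markers of astrocytes was followed in mouse amygdala 2 h after auditory fear conditioning, with and without earlier immobilization stress. The genes were Slc1a2, Slc1a3, Gja1, Gjb6, Gfap, S100b, Aqp4, Aldh1l1 and Aldoc. They were taken by symbol from a table of 23303 gene entries, and all 9 were found. Male C57BL/6J mice aged 2 to 3 months formed 3 groups. HC mice were home-cage controls that were handled and taken out of the animal room, with no other procedure. FC mice received tone and foot-shock pairings and were killed 2 h later. Immo+FC mice were immobilized for 2 h a week before the same conditioning. There was no group with immobilization alone. RNA-seq libraries came from 1 mm punches centred on the basolateral nucleus, 6 from HC, 6 from FC and 4 from Immo+FC mice, and from trunk blood, 4 from HC, 5 from FC and 5 from Immo+FC mice. Each library pooled 2 mice of the same group, and the punches may reach other amygdala nuclei. Libraries were numbered separately in each tissue and group, so the same number in amygdala and blood need not be the same pool.

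Astrocytes are the glial cells that take up transmitter after release, buffer potassium, move water at blood vessels and supply neurons with energy substrates. Slc1a2 and Slc1a3 encode the glutamate transporters GLT-1 and GLAST. Gja1 and Gjb6 encode connexin 43 and connexin 30, which form the gap junctions that join astrocytes into a network. Gfap is the intermediate filament of the astrocyte cytoskeleton and rises in reactive astrocytes, S100b is a calcium-binding protein, Aqp4 is the water channel of the endfeet on vessels, Aldh1l1 is an enzyme of folate metabolism, and Aldoc is the brain aldolase of glycolysis.

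Reads numbered 23148078 to 31366290 per amygdala library and 9081977 to 25892322 per blood library. The unit throughout is FPKM, fragments scaled to transcript length and to the mapped fragments of a library. Amygdala libraries differed in 2 respects that the group labels do not give. The summed level of 12 choroid plexus markers, which belong to the epithelium that makes cerebrospinal fluid, ran from 31.8 to 1230 FPKM in HC, from 33.1 to 1070 FPKM in FC and from 158 to 1080 FPKM in Immo+FC. The mean log2 level of 316 genes with a transcript over 10000 bases, centred over the 16 libraries, served as a long-transcript score. It stood at -0.178 for library 1 of HC, at -0.131 for library 2 of HC, at -0.325 to -0.093 across FC and at -0.223 for library 1 of Immo+FC. The same score was 0.207 to 0.259 in the other 4 HC libraries and 0.209 to 0.244 in the other 3 Immo+FC libraries. Neuron, oligodendrocyte and microglia markers had overlapping summed levels in the 3 groups, for neurons 3820 to 4200 FPKM in HC, 3870 to 4280 FPKM in FC and 3640 to 4080 FPKM in Immo+FC. Single markers were less even. Of 15 neuron markers, 0 were higher in Immo+FC than in FC, and 3 were lower at an unadjusted p under 0.05 in limma, 20% beside 6.49% of all genes. Of 12 microglia markers, 0 were higher and 3 lower in Immo+FC than in HC at that level, 25% beside 7.73%. Of these 12 markers, 1 was lower after adjustment, beside 0.0814% of all genes.

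The start regions of 3 members are shown. Gja1 and Gjb6 varied together between libraries of a group, but their log2 fold changes against HC were unlike. These were 0.48 for FC and 0.57 for Immo+FC in Gjb6, beside 0.03 and -0.01 in Gja1, none past the adjusted threshold. Gfap was taken because it varied most. Sequences are from RefSeq, build GRCm38.p6, each of 300 bases from 250 before to 50 after the annotated start, read 5′ to 3′ on the strand of the gene. They are chr10:56377050-56377349 on the plus strand for Gja1, chr14:57133562-57133861 on the minus strand for Gjb6 and chr11:102897151-102897450 on the minus strand for Gfap. Capitals mark matches to any of 7 short motifs.
Gja1: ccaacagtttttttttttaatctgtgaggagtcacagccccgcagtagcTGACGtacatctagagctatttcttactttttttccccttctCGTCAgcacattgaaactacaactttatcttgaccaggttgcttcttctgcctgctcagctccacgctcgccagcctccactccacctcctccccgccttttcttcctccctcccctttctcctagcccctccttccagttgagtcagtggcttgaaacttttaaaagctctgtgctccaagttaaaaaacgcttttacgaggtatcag
Gjb6: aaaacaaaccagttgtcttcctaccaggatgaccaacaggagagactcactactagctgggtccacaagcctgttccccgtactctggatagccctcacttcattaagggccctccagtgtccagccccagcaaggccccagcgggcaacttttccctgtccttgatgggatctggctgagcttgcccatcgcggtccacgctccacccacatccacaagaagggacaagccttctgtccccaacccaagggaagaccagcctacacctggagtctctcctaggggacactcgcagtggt
Gfap: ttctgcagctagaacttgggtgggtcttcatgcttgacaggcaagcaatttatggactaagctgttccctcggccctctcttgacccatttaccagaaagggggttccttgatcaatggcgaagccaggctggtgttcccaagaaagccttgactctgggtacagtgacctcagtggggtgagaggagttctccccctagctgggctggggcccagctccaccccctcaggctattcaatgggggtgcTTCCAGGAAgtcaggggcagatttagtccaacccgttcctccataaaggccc
Motifs were searched on both strands in 32851 windows of the same length. TATAAA was present in 13.6% of all windows, CCAAT in 37.4%, TTGGCA of NF1 factors in 14.1%, TTCNNNGAA of STAT factors in 8.3%, AGAACA of the glucocorticoid receptor in 19%, GGGCGG of SP1 in 35.7% and TGACG of CREB factors in 20.8%. A CCAAT on the minus strand and a TTGGCA can share the letters TTGG. The Gja1 window held TGACG at base 50 and, on the other strand, at base 92. The Gfap window held the STAT letters TTCCAGGAA from base 249, across the annotated start. None of the 7 motifs matched in the Gjb6 window, so the 2 connexin windows had no searched motif in common. Windows were found for 8 of the 9 members. A match describes letters only and is not a measured binding site.

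All 9 members were detected in each of the 16 amygdala libraries. Aldoc was the most abundant at 331 ± 16.4 FPKM (SD, n = 16), followed by Slc1a2 at 160 ± 14.7 FPKM and Slc1a3 at 102 ± 6.02 FPKM. S100b at 46.4 ± 3.8 FPKM and Gja1 at 41.9 ± 2.93 FPKM overlapped in range, with S100b the higher in 12 of 16 libraries. Gfap at 22.2 ± 5.56 FPKM stood above Aqp4 at 13.6 ± 1.35 FPKM in all 16 libraries although their ranges overlapped. Aqp4 in turn was above Aldh1l1 at 11.1 ± 0.702 FPKM in all 16. Aldh1l1 and Gjb6 at 10.9 ± 2.27 FPKM could not be ordered, since Aldh1l1 was the higher in 8 of 16 libraries.

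**Figure D1:**
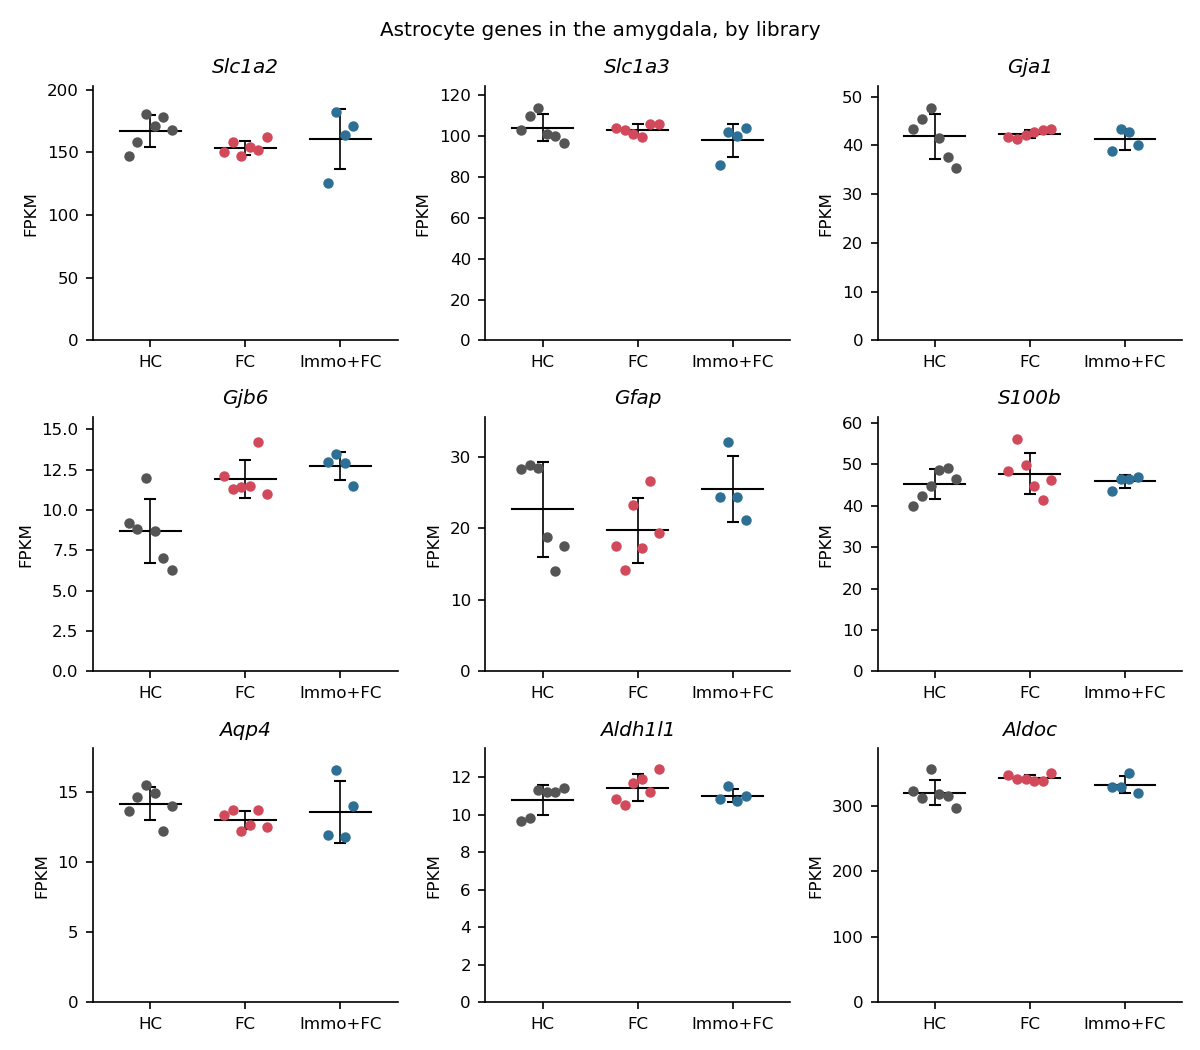
Level in FPKM (y axis) of each of the 9 astrocyte genes in amygdala libraries of the HC, FC and Immo+FC groups (x axis); points are libraries in order of their number, lines are means and bars are 1 SD. HC libraries of Gjb6 sit between 6.3 and 12 FPKM and those of FC and Immo+FC between 11 and 14.2 FPKM, while Aldoc, Slc1a3 and Gja1 stay within narrow bands.

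Of the 9 members, none passed an adjusted p of 0.05 over all 13508 genes tested with limma in any of the 3 amygdala comparisons. The share of all genes called was 0.0148% for FC versus HC, 0.0222% for Immo+FC versus FC and 0.2% for Immo+FC versus HC, so few calls were made among any genes. At an unadjusted p under 0.05 the members numbered 2 of 9 (Gjb6 and Aldoc) for FC versus HC, where 13.1% of all genes reached that level, 0 of 9 for Immo+FC versus FC against 10.4%, and 1 of 9 (Gjb6) for Immo+FC versus HC against 13.1%. No member had groups that did not overlap, against 1.39%, 2.28% and 2.57% of all genes in these comparisons. The median log2 fold change of the members was 0.03, -0.04 and 0.02, beside 0.01, -0.02 and -0.01 over all genes. The FC versus HC and Immo+FC versus HC comparisons share the HC libraries. In a tissue punch, fewer astrocytes and less RNA per astrocyte cannot be told apart.

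**Figure D2:**
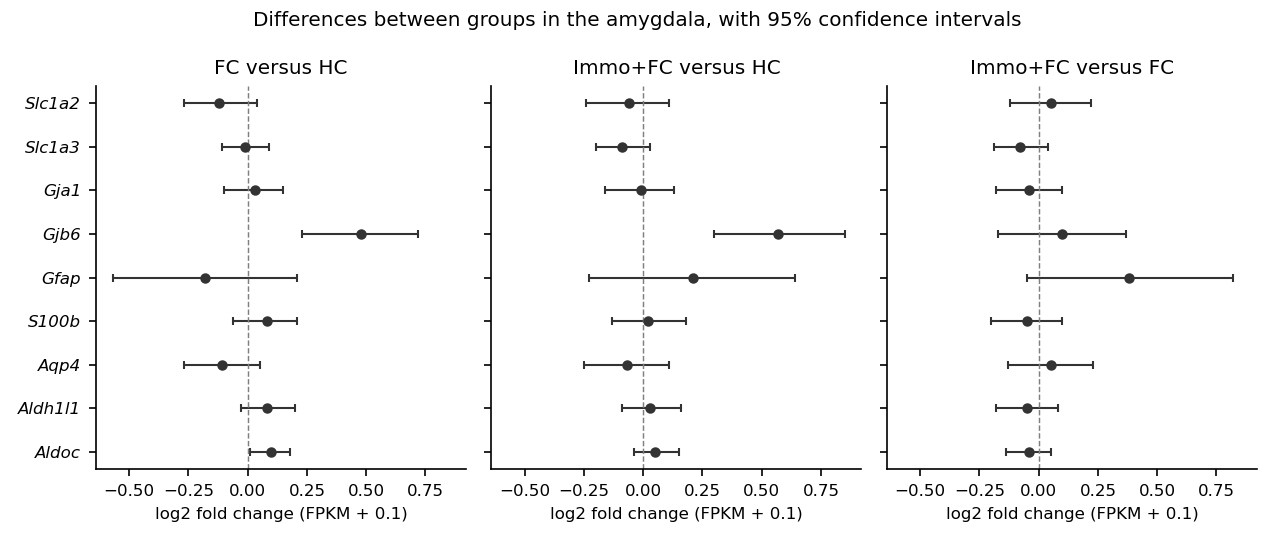
Log2 fold change of FPKM + 0.1 (x axis) of the 9 astrocyte genes (y axis) in the 3 amygdala comparisons; points are limma estimates and bars are 95% confidence intervals. Gjb6 lies at 0.48 for FC versus HC and 0.57 for Immo+FC versus HC with intervals above 0, and of the other members only Aldoc, for FC versus HC, has an interval that leaves out 0.

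Among the connexins, Gjb6 showed the largest differences of the members in both comparisons with HC. Its lowest, median and highest values were 6.3, 8.77 and 12 FPKM in HC and 11, 11.4 and 14.2 FPKM in FC. In Immo+FC the 4 libraries had 13, 13.5, 12.9 and 11.5 FPKM. HC library 3, at 12 FPKM, was the only HC library within the range of FC or of Immo+FC, and the other 5 HC libraries, up to 9.17 FPKM, lay below every conditioned library. The log2 fold change of FC versus HC was 0.48 ± 0.11 (SE), a fold of 1.39, with an adjusted p of 0.106 in limma. That of Immo+FC versus HC was 0.57 ± 0.13 (SE), a fold of 1.49, with an adjusted p of 0.0775. Neither passed the threshold. Immo+FC and FC differed by 0.10 with a 95% confidence interval of -0.17 to 0.37 (adjusted p = 0.838).

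Whether Gjb6 was called depended on single libraries and on weighting. Without HC library 3 the log2 fold change was 0.58 for FC versus HC (adjusted p = 0.0234) and 0.67 for Immo+FC versus HC (adjusted p = 0.0111). Without Immo+FC library 4 the latter was 0.62 (adjusted p = 0.0478). HC library 3 was the highest HC library for 6 of the 9 members, not for Gjb6 alone. With array weights the FC versus HC difference of 0.48 had an adjusted p of 0.0269. Without HC libraries 1 and 2 it was 0.52 (adjusted p = 0.0539), with the choroid plexus score as a covariate 0.46 (adjusted p = 0.085), and with a covariate for the long-transcript score 0.43 (adjusted p = 0.245). Over 29 alternatives the difference stayed positive in all 29 for each comparison with HC and was called in 2 of them for each, with adjusted p from 0.0234 to 0.263 and from 0.0111 to 0.642.

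Gja1, the other astrocyte connexin, had 35.4, 42.4 and 47.7 FPKM as lowest, median and highest HC values and 41.3, 42.4 and 43.4 FPKM in FC. The Immo+FC libraries had 38.9, 43.4, 42.7 and 40.1 FPKM. Both conditioned groups lay wholly inside the HC range. Gja1 differed on the log2 scale by 0.03 (95% confidence interval -0.1 to 0.15, adjusted p = 0.893) for FC versus HC and -0.01 (-0.16 to 0.13, adjusted p = 0.95) for Immo+FC versus HC. The 2 connexins nevertheless varied together between libraries of a group: after subtraction of group means their Pearson r over the 16 libraries was 0.85, the highest of the 36 pairs of members. Both genes of a library share its depth and scaling.

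The ratio of Gjb6 to Gja1 within a library ran from 0.178 to 0.252 in HC, from 0.254 to 0.329 in FC and from 0.287 to 0.335 in Immo+FC. No HC library reached the range of either conditioned group. This ratio was chosen after the values had been seen and is given without a test. HC library 3, high for both connexins, also had the highest HC ratio, 0.252.

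**Figure D3:**
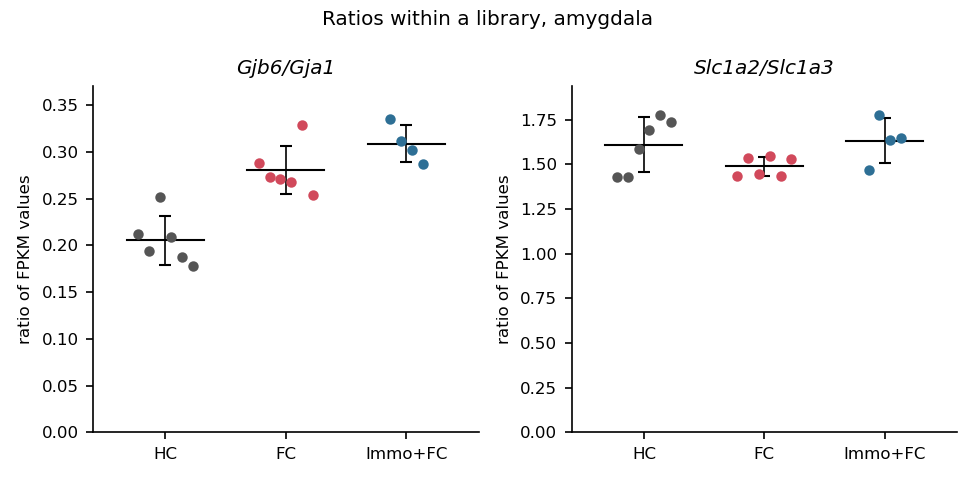
Ratio of FPKM values within a library (y axis) for Gjb6 to Gja1 and for Slc1a2 to Slc1a3 in the 3 amygdala groups (x axis); points are libraries, lines are means and bars are 1 SD. Gjb6 to Gja1 is at most 0.252 in HC and at least 0.254 in FC, while Slc1a2 to Slc1a3 overlaps between all groups.

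Other gap junction genes were measured as well. Of the 9 listed, 8 were tested and none passed in any comparison, also at an unadjusted p under 0.05. Gjc3, the glial connexin 29, had a log2 fold change of 0.12 for FC versus HC (adjusted p = 0.552). Gjd2, the neuronal connexin 36, had -0.24 for Immo+FC versus FC (adjusted p = 0.622).

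Gfap was the most variable member. Its residual SD within groups, 0.361 on the log2 scale, was above that of 94.4% of the genes tested. The lowest, median and highest values were 14, 23.6 and 28.8 FPKM in HC and 14.2, 18.4 and 26.6 FPKM in FC, and the Immo+FC libraries had 24.4, 32, 24.3 and 21.2 FPKM. The HC libraries were divided, with 28.3, 28.8 and 28.4 FPKM in libraries 1 to 3 and 18.8, 14 and 17.5 FPKM in libraries 4 to 6. Differences of Gfap on the log2 scale were -0.18 ± 0.18 (SE) for FC versus HC (adjusted p = 0.738), 0.21 ± 0.21 for Immo+FC versus HC (adjusted p = 0.719) and 0.38 ± 0.21 for Immo+FC versus FC (adjusted p = 0.537). All groups overlapped.

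Markers of choroid plexus and ependyma also differed between libraries, and in HC they divided as Gfap did. Ttr, the transthyretin of choroid plexus epithelium, had 561, 1030 and 293 FPKM in HC libraries 1 to 3 and 2.95, 1.21 and 0.837 FPKM in HC libraries 4 to 6, the same division as for Gfap. In FC it had 1.46, 1.54, 83.2, 538, 881 and 351 FPKM in libraries 1 to 6, where Gfap had 17.5, 14.2, 23.3, 17.2, 26.6 and 19.3 FPKM. FC libraries 4 and 6 thus had high Ttr without high Gfap, and FC library 3 had more Gfap than either with less Ttr. In Immo+FC, Ttr had 941, 726, 614 and 109 FPKM. Summed ependyma markers ran from 9.56 to 27.6 FPKM in HC, 9.16 to 24 FPKM in FC and 12 to 34.7 FPKM in Immo+FC. All 12 choroid plexus markers had a higher mean log2 level in Immo+FC than in HC. At an unadjusted p under 0.05 there was 1, 8.33% beside 5.34% of all genes, and none passed after adjustment. With the choroid plexus score as a covariate, a fit added after the data had been seen, the Gfap difference was 0.17 for Immo+FC versus FC, -0.056 for Immo+FC versus HC and -0.22 for FC versus HC.

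Without HC libraries 1 and 2, the FC versus HC difference of Gfap was 0.018 in place of -0.18. In HC, S100b ran opposite to the division of Gfap. It had 39.9, 45.7 and 49.1 FPKM as lowest, median and highest HC values, 41.4, 47.3 and 56.1 FPKM in FC, and 43.7, 46.6, 46.4 and 47.0 FPKM in Immo+FC. HC libraries 1 to 3, the high libraries for Gfap, held the 3 lowest values of S100b in that group. Within groups the Pearson r of Gfap and S100b over the 16 libraries was -0.69, the lowest of the 36 pairs. S100b differed by 0.08, 0.02 and -0.05 on the log2 scale for FC versus HC, Immo+FC versus HC and Immo+FC versus FC, with adjusted p from 0.667 to 0.919.

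**Figure D4:**
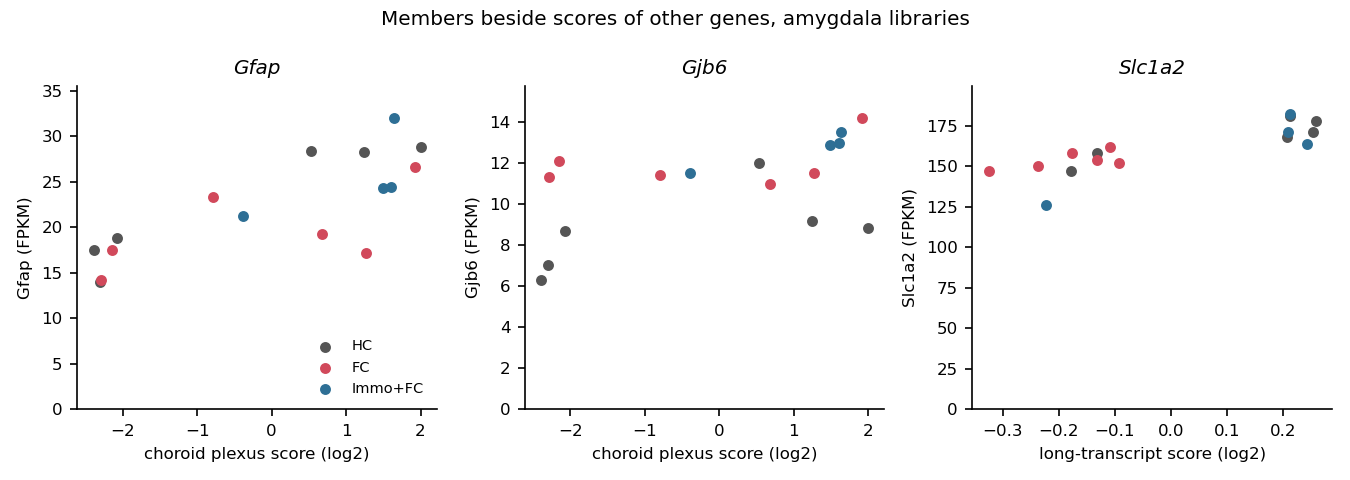
Level in FPKM (y axis) of Gfap and Gjb6 against the choroid plexus score and of Slc1a2 against the long-transcript score (x axes, mean log2 level of the marker genes centred over libraries), one point per amygdala library, coloured by group. Gfap is 14 to 18.8 FPKM in the 5 libraries with the lowest choroid plexus scores, and the 9 libraries with a negative long-transcript score all have Slc1a2 of at most 162 FPKM.

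Of the glutamate transporters, Slc1a2 had 147, 170 and 181 FPKM as lowest, median and highest HC values and 147, 153 and 162 FPKM in FC. The Immo+FC libraries had 126, 182, 164 and 171 FPKM. The lowest value of all belonged to Immo+FC library 1, and HC libraries 1 and 2, with 147 and 158 FPKM, lay with the FC group. These were the libraries with low long-transcript scores, and Slc1a2 has the longest transcript of the members, 11595 bases. For FC versus HC its log2 fold change was -0.12 ± 0.07 (SE, adjusted p = 0.523), and with a covariate for the long-transcript score its sign turned, to 0.077 (adjusted p = 0.528). That of Immo+FC versus FC was 0.05 ± 0.08 (SE, adjusted p = 0.868), and -0.15 with the covariate.

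Slc1a3, with a longest transcript of 4435 bases, varied less. Its lowest, median and highest values were 96.6, 102 and 114 FPKM in HC and 99.6, 104 and 106 FPKM in FC, and the Immo+FC libraries had 86.1, 102, 100 and 104 FPKM. Immo+FC library 1 was again the lowest, and the other 3 Immo+FC libraries lay within the FC range. Log2 fold changes were -0.01 for FC versus HC (95% confidence interval -0.11 to 0.09), -0.09 for Immo+FC versus HC (-0.2 to 0.03) and -0.08 for Immo+FC versus FC (-0.19 to 0.04). The ratio of Slc1a2 to Slc1a3 was 1.43 to 1.78 in HC, 1.43 to 1.55 in FC and 1.47 to 1.78 in Immo+FC.

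Aqp4 had 12.2, 14.3 and 15.5 FPKM as lowest, median and highest HC values and 12.2, 13 and 13.7 FPKM in FC. The Immo+FC libraries had 11.9, 16.5, 11.8 and 14 FPKM, so that this group spanned the others. Aqp4 differed on the log2 scale by -0.11 (95% confidence interval -0.27 to 0.05, adjusted p = 0.555) for FC versus HC and -0.07 (-0.25 to 0.11, adjusted p = 0.786) for Immo+FC versus HC. The proteins that anchor Aqp4 at the endfeet were measured by 9 genes, none of which passed. Dmd, which encodes dystrophin, had -0.20 for FC versus HC (adjusted p = 0.425), and Dtna, which encodes α-dystrobrevin, had 0.23 for Immo+FC versus FC (adjusted p = 0.322).

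Of the metabolic enzymes, Aldoc was the steadiest of the 9 members. Aldoc had 297, 316 and 356 FPKM as lowest, median and highest HC values, 337, 340 and 349 FPKM in FC, and 329, 329, 350 and 319 FPKM in Immo+FC. HC library 3 had the 356 FPKM, and the other 5 HC libraries, up to 322 FPKM, lay below all FC libraries. Only 5.7% of the genes tested had a lower residual SD than Aldoc (0.062 on the log2 scale). Its difference between FC and HC, 0.10 ± 0.04 (SE, log2), had an unadjusted p of 0.0251 and an adjusted p of 0.291 in limma. Aldh1l1 had 9.66, 11.2 and 11.4 FPKM in HC, 10.5, 11.4 and 12.4 FPKM in FC, and 10.8, 11.5, 10.7 and 11 FPKM in Immo+FC, and its log2 fold changes lay between -0.05 and 0.08.

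Further astrocyte genes were taken from 8 lists covering identity, ion handling, the Aqp4 anchoring complex, the glutamate and GABA cycle, glycogen and glycolysis, other gap junction genes, reactive astrocytes and regulators. Of 165 genes, 163 were in the table and 144 were tested. None passed an adjusted p of 0.05 in any amygdala comparison. At an unadjusted p under 0.05, 13 were higher and 3 lower in FC than in HC, 9.03% and 2.08% of those tested beside 6.59% and 6.48% of all genes. For Immo+FC versus HC 14 were higher and 6 lower, 9.72% and 4.17% beside 5.34% and 7.73%. For Immo+FC versus FC 5 were higher and 8 lower, 3.47% and 5.56% beside 3.94% and 6.49%. The median log2 fold change was 0.03, 0.02 and -0.02 in these comparisons, beside 0.01, -0.01 and -0.02 over all genes.

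Dio2, the deiodinase by which astrocytes activate thyroid hormone, had the smallest p of the identity genes for FC versus HC. Its lowest, median and highest values were 4.31, 5.92 and 7.15 FPKM in HC and 6.37, 7.98 and 8.55 FPKM in FC, and the Immo+FC libraries had 7.29, 9.26, 7.45 and 8.72 FPKM. Every Immo+FC library was above every HC library, and groups did not overlap in that comparison for 2.57% of all genes. Dio2 differed on the log2 scale by 0.43 ± 0.11 (SE, adjusted p = 0.11) for FC versus HC and 0.50 ± 0.12 (adjusted p = 0.0908) for Immo+FC versus HC. Ttyh1, a chloride channel of astrocytes, had -0.10 for Immo+FC versus FC (adjusted p = 0.39).

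In the glutamate and GABA cycle, Gpt2, an alanine aminotransferase of mitochondria, had 11.3, 11.8 and 13.9 FPKM in HC, 12.9, 14.2 and 15.0 FPKM in FC, and 15.3, 15.4, 14.6 and 13.5 FPKM in Immo+FC. HC library 3 was again the high HC library and the only one within the other groups. Gpt2 had a log2 fold change of 0.22 ± 0.05 (SE, adjusted p = 0.106) for FC versus HC and 0.28 ± 0.06 (adjusted p = 0.0717) for Immo+FC versus HC. Glul, the glutamine synthetase of astrocytes, was named after its values had been seen and had 0.13 for FC versus HC (adjusted p = 0.268).

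In glycogen and glycolysis, Pfkfb3, which makes the activator of phosphofructokinase, had 3.64 to 4.64 FPKM in HC, 4.66 to 6.31 FPKM in FC and 5.09 to 5.87 FPKM in Immo+FC. No HC library overlapped either conditioned group. Groups did not overlap for 1.39% of all genes in FC versus HC and 2.57% in Immo+FC versus HC. Pfkfb3 was named for the smallest p of its list in FC versus HC, which favours groups that do not overlap. Pfkfb3 had log2 fold changes of 0.36 ± 0.09 (SE, adjusted p = 0.106) and 0.37 ± 0.10 (adjusted p = 0.118) for FC and Immo+FC versus HC. Hk1, the main hexokinase of brain, had -0.13 for Immo+FC versus FC (adjusted p = 0.208) and was named for its p there. All 4 Immo+FC libraries, at 77.2 to 82.9 FPKM, were below the FC libraries at 84.0 to 93.3 FPKM. Groups did not overlap in that comparison for 2.28% of all genes. Among ion handling genes, Hepacam, a cell adhesion protein of endfeet, had 0.11 for FC versus HC (adjusted p = 0.384) and Atp1b2, a sodium pump subunit, had -0.12 for Immo+FC versus FC (adjusted p = 0.426).

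Of 40 genes listed for reactive astrocytes, 25 were tested. For Immo+FC versus HC 7 were higher at an unadjusted p under 0.05 and 0 lower, 28% and 0% of those tested beside 5.34% and 7.73% of all genes. For Immo+FC versus FC 3 were higher and 0 lower, 12% and 0% beside 3.94% and 6.49%. For FC versus HC 3 were higher and 1 lower, 12% and 4% beside 6.59% and 6.48%. The list had a median log2 fold change of 0.15 for Immo+FC versus HC, beside -0.01 over all genes, and 0.07 in each of the other comparisons. None passed the adjusted threshold in any comparison. Both counts for Immo+FC include Lcn2, lipocalin 2, which averaged 0.0783 FPKM in HC, 0.186 FPKM in FC and 1.88 FPKM in Immo+FC. It reached the minimum mean of 0.5 FPKM only through the group where it was high, so its place in these counts is not independent of the filter. Amigo2, an adhesion protein, had 3.02 to 4.7 FPKM in HC, 4.76 to 7.63 FPKM in FC and 3.86 to 5.93 FPKM in Immo+FC. HC and FC did not overlap, as for 1.39% of all genes, and Amigo2 was named for its p in that comparison. Its log2 fold change was 0.55 ± 0.15 (SE, adjusted p = 0.114) for FC versus HC. Gbp2, an interferon-induced GTPase, had 0.441 to 0.639 FPKM in FC and 0.872, 0.91, 0.756 and 0.627 FPKM in Immo+FC, a difference of 0.41 ± 0.13 (adjusted p = 0.263).

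The higher values of the reactive list lay mostly in 2 Immo+FC libraries. The mean centred log2 level of the 25 genes was 0.32 and 0.36 in Immo+FC libraries 1 and 2, 0.01 and -0.03 in libraries 3 and 4, and -0.19 to 0.08 in HC and FC. Lcn2 and Vim, vimentin, are given after their values had been seen. Lcn2 had 3.27 and 4.04 FPKM in Immo+FC libraries 1 and 2 and at most 0.661 FPKM in the other 14 libraries. It is among the 25 genes averaged and raises the mean level of those 2 libraries. The level without Lcn2 was not computed, so a rise across the list is not shown. Vim had 12.5, 12.4, 10.1 and 8.07 FPKM in Immo+FC and 6.54 to 9.64 FPKM in HC (log2 fold change 0.41 ± 0.13, adjusted p = 0.188). Choroid plexus scores were 1.61 and 1.64 in Immo+FC libraries 1 and 2, and 1.49 and -0.39 in libraries 3 and 4. Markers of the leptomeninges, the thin membranes around the brain, summed to 94.9 to 200 FPKM in HC, 90.3 to 257 FPKM in FC and 149 to 343 FPKM in Immo+FC. Of the 8 tested, 3 had higher levels in Immo+FC than in HC at an unadjusted p under 0.05 and 0 had lower levels. These were 37.5% and 0%, beside 5.34% and 7.73% of all genes. Counts were the same against FC, beside 3.94% and 6.49% of all genes. Median log2 fold changes were 0.58 and 0.62, and none of these markers passed the adjusted threshold. Their mean centred log2 level was 0.37, 0.89, 0.25 and -0.04 in Immo+FC libraries 1 to 4. The part of choroid plexus, ependyma and leptomeninges in these values was not tested for the list.

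Among regulators, Nfia, a transcription factor that starts astrocyte development, had 2.45 to 3.0 FPKM in FC and 1.98, 2.56, 2.06 and 1.99 FPKM in Immo+FC, a log2 difference of -0.38 ± 0.11 (SE, adjusted p = 0.21). Gli3, a factor of the hedgehog pathway, had -0.30 ± 0.12 for FC versus HC (adjusted p = 0.306). Nfia had 3.12 and 2.89 FPKM in HC libraries 1 and 2 and 2.11 to 2.31 FPKM in the other 4 HC libraries.

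The genes most like the mean of the 9 members within groups were ranked by Pearson r over the 16 amygdala libraries among 13499 genes. Members were not scaled to equal spread before averaging. Gfap and Gjb6, with residual SDs of 0.361 and 0.22 beside at most 0.14 for the others, therefore weigh most. S100b and Aldh1l1 had negative r with both, and so had Slc1a2, at -0.18 with Gfap and -0.05 with Gjb6. The ranking is thus not an even measure of all 9 members. Aifm3, a mitochondrial protein, was first with r = 0.91, followed by A830082K12Rik (0.86), H2-Eb1 (0.85), Col4a2 (0.85), Sin3b (0.85), Cbs (0.84), Arhgap18 (0.84) and Thra (0.84). H2-Eb1 had a mean of 0.541 FPKM, near the minimum of 0.5 FPKM. Cbs, the cystathionine beta-synthase of astrocytes, was in the identity list and ranked 6, and Glul ranked 11 with r = 0.83. The most opposed were Nrep (-0.90), Klf10 (-0.85) and Tob2 (-0.84). The mean of the members was highest in Immo+FC library 2 and HC library 3, at 0.17 and 0.15 above the mean over libraries on the log2 scale, and lowest at -0.15 in HC libraries 5 and 6. All genes of a library share its depth and scaling, and no p was computed.

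In blood, where astrocytes are absent, the members were read as background. Amygdala and blood were normalised separately by the authors, so levels are set side by side without a test. Blood libraries had at most 9.74 FPKM of any member. Gja1, Gjb6, S100b and Aqp4 had means under 0.5 FPKM and were not tested, with Gjb6 listed at 0 in 8 of 14 libraries and Aqp4 in 5 of 14. Of the 5 tested, Slc1a2, Slc1a3, Aldoc, Gfap and Aldh1l1, none passed the adjusted threshold in any comparison, beside 0.0343% of all 11656 genes for FC versus HC, 0% for Immo+FC versus FC and 0.0686% for Immo+FC versus HC. At an unadjusted p under 0.05 there were 3 of 5 for FC versus HC against 10.2% of all genes, 0 of 5 for Immo+FC versus FC against 9.54% and 3 of 5 for Immo+FC versus HC against 15.3%.

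Those 3 genes had lower levels in both conditioned groups. Slc1a2 had 2.25, 0.795, 2.89 and 2.54 FPKM in the HC libraries, 0.333, 0.0251, 0.196, 0.337 and 0.681 FPKM in FC, and 0.237, 0.324, 0.328, 0.69 and 0.0132 FPKM in Immo+FC. Every HC library was above every other library. On the scale of log2(FPKM + 0.1) the difference was -2.52 ± 0.60 (SE) for FC versus HC (adjusted p = 0.127) and -2.52 ± 0.60 for Immo+FC versus HC (adjusted p = 0.0792). Slc1a3 had 1.49, 0.448, 2.0 and 1.51 FPKM in HC and at most 0.486 FPKM elsewhere, with differences of -2.23 (adjusted p = 0.128) and -2.21 (adjusted p = 0.0797). Aldoc had 6.25, 3.8, 7.14 and 9.74 FPKM in HC, 2.0 to 4.65 FPKM in FC and 2.13 to 3.48 FPKM in Immo+FC, with differences of -1.14 (adjusted p = 0.126) and -1.25 (adjusted p = 0.0654). Groups did not overlap for 1 of 5 members in FC versus HC (3.88% of all genes) and for 3 of 5 in Immo+FC versus HC (4.61%). HC blood library 4 had the fewest reads, 9081977, and was the highest HC blood library for 5 of the 9 members. Summed levels of 4 red cell markers ran from 13700 to 132000 FPKM in HC, 12200 to 25900 FPKM in FC and 14400 to 32200 FPKM in Immo+FC. The part of depth and red cell transcripts in these differences was not tested.

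Neuronal transcripts were high in the same blood libraries. Snap25, a synaptic vesicle fusion protein, had 11.7, 3.6, 14.5 and 16.5 FPKM in HC, 1.89, 0.142, 1.17, 0.526 and 4.21 FPKM in FC, and 2.06, 1.92, 2.57, 4.37 and 0.0747 FPKM in Immo+FC. HC blood library 2 was the lowest HC blood library for Snap25 and, alone, for 7 of the 9 members. It was listed at 0 together with HC blood library 3 for Gjb6, and Aldh1l1 was lowest in HC blood library 3. Of 15 neuron markers 14 had a higher mean in HC than in FC, and 14 than in Immo+FC. Nrgn, which platelets also contain, made up most of the list in blood at 2110 to 4010 FPKM, and the other 14 summed to 26.5 to 81.9 FPKM in HC, 13.1 to 30.2 FPKM in FC and 11.7 to 30.1 FPKM in Immo+FC. The part of these transcripts in the values of Slc1a2, Slc1a3 and Aldoc was not tested. Gfap had 0.806 to 1.68 FPKM in HC, 0.66 to 1.77 FPKM in FC and 0.456 to 2.36 FPKM in Immo+FC, and Aldh1l1 had 0.529 to 0.702, 0.471 to 1.8 and 0.615 to 1.33 FPKM, all overlapping.

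**Figure D5:**
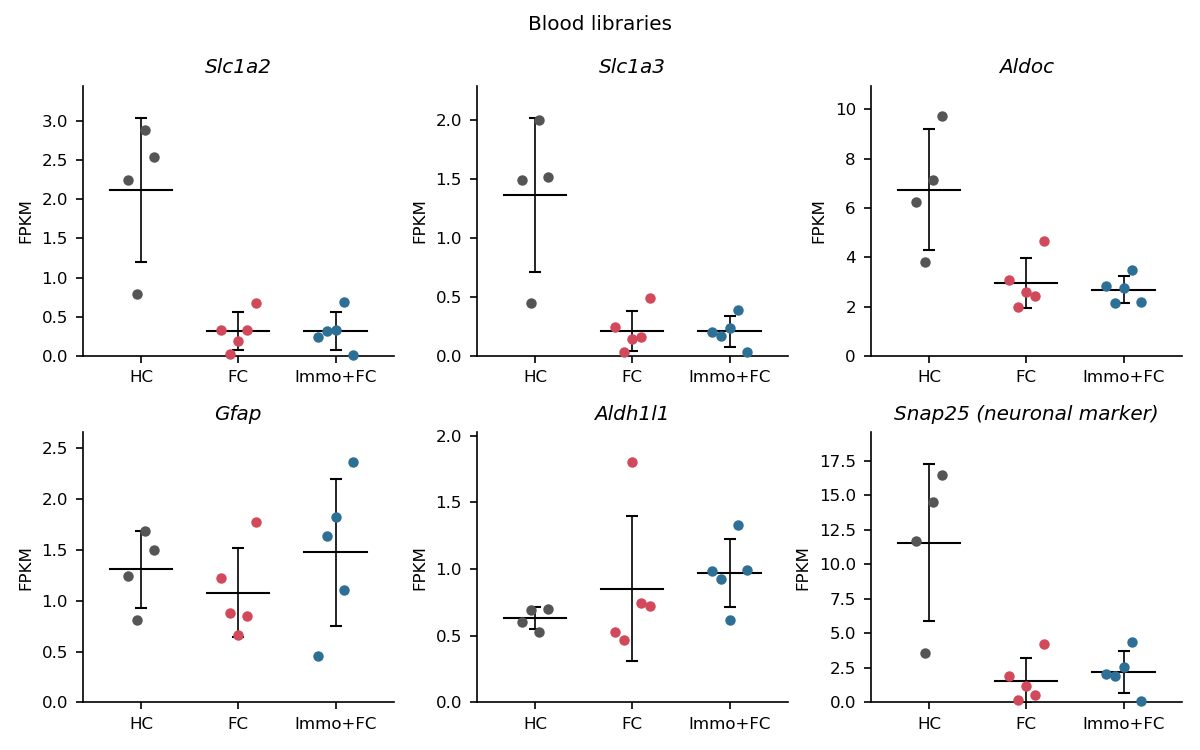
Level in FPKM (y axis) of the 5 members tested in blood and of the neuronal marker Snap25 in HC, FC and Immo+FC blood libraries (x axis); points are libraries, lines are means and bars are 1 SD. Slc1a2 in HC is 0.795 to 2.89 FPKM and at most 0.69 FPKM elsewhere, and Snap25 has its 3 highest values, 11.7 to 16.5 FPKM, in HC libraries.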

How the data were processed

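Libraries were poly-A selected, and blood RNA was depleted of globin transcripts. According to the submitters' processing notes and the study's methods, alignment by the authors used STAR 2.3 and mm10, and FPKM were obtained from Cufflinks 2.1.1 and Cuffdiff 2.1.1 for each tissue on its own, so the deposited FPKM values are comparable within a tissue. The deposited mapping table gives counts of sequences per library. Counts per gene were not used here, so the depth behind a single gene's value is unknown. Of the table's entries, 272 join symbols of overlapping genes, none of them a member.

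A pseudocount of 0.1 was added to FPKM before log2 transformation, and limma 3.58.1 (R 4.3.3, two-sided tests with a variance trend) was fitted per tissue to all 3 groups at once, for genes averaging 0.5 FPKM or more. Benjamini-Hochberg adjustment ran over every gene tested, with a threshold of 0.05. Fold changes are on the scale with the pseudocount and understate changes of low genes. The script was tested on simulated data with 200 changed genes. Each library pooled 2 mice, so p-values measure the spread between pools.

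The members and lists were chosen with earlier results of these data known. Named genes are all 9 members, in each further list the gene with the smallest p for FC versus HC and for Immo+FC versus FC (any past the threshold first, of which there were none), the 8 genes most like and the 3 least like the mean of the members, and the defining markers of other cell types. One gene that this rule names is not reported here. Of the listed genes, 8 were not in the table. Alternatives covered pseudocount, filter, scaling, array weights, groups fitted, covariates, a replicate block and left-out libraries. Transcript lengths are from GENCODE vM21.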

Additional observations from a re-analysis of the deposited data

Results flagged for a closer look

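In each group of 4 to 10 libraries, the lowest and highest value of each member were compared with the others by Dixon's criterion. Of 54 groups of values, 3 had a library far from the rest, and chance gives about 1 in 20. Gjb6 had 14.2 FPKM in FC amygdala library 5, beside 11 to 12.1 FPKM in the other FC libraries. Aqp4 had 0.0853 FPKM in FC blood library 5, beside 0 to 0.0241 FPKM in the others, which is near 0 throughout. Aldh1l1 had 1.8 FPKM in FC blood library 3, beside 0.471 to 0.742 FPKM in the others.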

How the results depend on the processing

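Gjb6 kept a positive difference from HC in all alternatives run. The number of members called moved from 0 to 1 in amygdala FC versus HC with array weights (Gjb6), and without 1 library it was 0 to 1 in FC versus HC and in Immo+FC versus HC. In blood it moved to 1 for FC versus HC without a minimum level (Slc1a3), and for Immo+FC versus HC to 3 with a pseudocount of 1 or quantile normalization (Slc1a2, Slc1a3 and Aldoc) and to 1 with array weights (Aldoc). Without HC blood library 2 or 3 it was 1 (Aldoc, adjusted p = 0.0354 and 0.0475 in limma), the range without 1 library being 0 to 1. Of the further genes, 5 were called in FC versus HC with array weights (Dio2, Amigo2, Pfkfb3, Slc2a1, Gpt2) and 2 without HC libraries 1 and 2 (Amigo2, Nfia). There was 1 in Immo+FC versus FC without those libraries (Nfia) and 2 in Immo+FC versus HC with the choroid plexus covariate (Dio2, Pfkfb3), a setting chosen after seeing the data. Without 1 library there were 0 to 1 in FC versus HC (Gpt2 without HC library 3) and 0 to 3 in Immo+FC versus HC (Dio2, Hspb1 and Gpt2 without HC library 3, Vim, Hspb1 and Gpt2 without Immo+FC library 4). Slc2a1 and Hspb1 were named after their values had been seen. The share of all genes called under each alternative is not given here. Whether an alternative raised calls among all genes alike therefore cannot be read from these counts of members and further genes.

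Signs turned for small differences, in log2 units. For FC versus HC in amygdala these were Gfap (0.018) and Slc1a3 (0.0078) without HC libraries 1 and 2, and Slc1a2 (0.077) and Slc1a3 (0.035) with the long-transcript covariate. For Immo+FC versus FC they were Aldoc (0.00064) with quantile normalization, Aqp4 (-0.01) and Slc1a2 (-0.15) with the long-transcript covariate, Aqp4 (-0.014) without Immo+FC libraries 1 and 2, and Gjb6 (-0.00076) and S100b (0.025) with the choroid plexus covariate. For Immo+FC versus HC they were Aldh1l1 (-0.037), Gja1 (0.031) and S100b (-0.043) without HC libraries 1 and 2, Aqp4 (0.0095), Gja1 (0.03) and Slc1a2 (0.0065) with array weights, Slc1a2 (0.0084) without Immo+FC libraries 1 and 2, and Gfap (-0.056) with the choroid plexus covariate. In blood Immo+FC versus FC, Aldoc turned with array weights (0.018), Slc1a2 with a pseudocount of 1 (0.004), median-ratio scaling (0.0054), quantile normalization (0.035) and array weights (0.18), and Slc1a3 with a pseudocount of 1 (-0.0034) and quantile normalization (-0.06). The cause was not tested.

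Without 1 library, the ranges that cross 0 were, for FC versus HC in amygdala, Gja1 -0.02 to 0.066 and Slc1a3 -0.03 to 0.017; for Immo+FC versus FC, Aqp4 -0.052 to 0.11 and Slc1a2 -0.011 to 0.16; for Immo+FC versus HC, Gja1 -0.061 to 0.025, S100b -0.012 to 0.048 and Slc1a2 -0.13 to 0.047. In blood they were Aldh1l1 -0.042 to 0.39 for FC versus HC, Aldoc -0.22 to 0.073, Slc1a2 -0.37 to 0.41 and Slc1a3 -0.25 to 0.28 for Immo+FC versus FC, and Gfap -0.16 to 0.38 for Immo+FC versus HC.

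Replicate numbers recur between groups but do not pair the libraries: same-numbered libraries correlated at -0.26 to 0.31 in their deviations from group means. With the number as a replicate block, 0 members and 0 further genes were called in each comparison, as without it. Gjb6 then differed by 0.48 for FC versus HC (adjusted p = 0.0592), and Gfap in blood turned to -0.15 for Immo+FC versus HC.

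With 4 to 6 pools a group and few genes called in all, a member that misses the threshold is not shown to be equal between groups.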
